A study of Sus scrofa with 6 samples.

Results

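Vimentin, keratin 8, lamin B1, β-actin and their partners make up the scaffold of a somatic cell, and 10 such genes were followed in pig nuclear transfer embryos and in the fibroblasts that gave the nuclei. They were VIM, KRT8, LMNB1, ACTB, TPM1, CALD1, MYL9, S100A4, ANXA1 and ANXA2, chosen by name with earlier results of these data known. The array carried 15 probe sets annotated to them, of 24123 probe sets in all, and each probe set is described separately because probe sets of 1 gene can read different stretches of its RNA. Of the 15, 14 passed the filter on low signals and were tested among 14399 probe sets.

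The study asked how DJ-1 bears on early development after nuclear transfer in the pig. Every embryo was made from a slaughterhouse oocyte that received a donor nucleus, and was collected 28 h later at the two-cell stage. Embryos injected with anti-DJ1 antibody gave 2 arrays, embryos injected with IgG, the control of both trials, gave 2, non-injected embryos gave 1, and the donor cells gave 1. Trial 1 held 1 array of each of these 4 groups, and trial 2 held an anti-DJ1 and an IgG array from biologically different samples. The donor cells were cultured fibroblasts established from an adult Meishan pig. An embryo array stood for a pool of 23 to 26 embryos, so variation between single embryos was not seen. The donor cells and the non-injected embryos had no replicate of their own, and the antibody groups had n = 2, which limits the precision of everything below. In the tests the spread of each lone array was assumed to be that of the replicated antibody groups. The standard errors and p-values of the donor comparisons therefore hold no measured spread between donor cultures.

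Intermediate filaments give a cell its mechanical strength. Vimentin forms them in mesenchymal cells and keratins in epithelial cells, while lamins line the inside of the nucleus. Actin filaments carry contraction and movement, with tropomyosin and caldesmon along the filament and myosin light chains on the motor. S100 proteins and annexins bind calcium, and annexins then attach to membranes and to the actin beneath them. In nuclear transfer the fibroblast brings its nucleus and a little cytoplasm into an oocyte that already holds a large store of maternal RNA, and the pig embryo at this stage has not reached its main wave of transcription.

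Signals were MAS5 intensities on a linear scale, and all 6 arrays had been brought to 1 trimmed mean, between 500.1 and 500.2. A signal was taken as above background when it exceeded the highest tag control of its array, which lay between 21.4 and 47.0. The donor array shared little of its profile with the embryos, with correlations across probe sets of 0.355 to 0.421 over 5 pairs, against 0.936 to 0.982 over the 10 pairs of embryo arrays. Fibroblast markers on the array, 15 of a list of 18, summed to 66876 in donor cells and to between 3296 and 4067 in embryos. Within that list SPARC and FN1 reached signals of 29990 and 24455 in donor cells, while DCN (5.58), LUM (1.71) and POSTN (22.7) were not above background there. In donor cells 12 of the 15 were above background, and in embryos 10 to 12. Of the 11 tested, 8 were called higher in donor cells and 2 lower, DCN (-2.91 on the log2 scale) and PDGFRB (-1.20). Over all tested probe sets 36.5% were called higher and 36.4% lower. TIMP1, 1 of the 8, passed the filter on low signals only through its donor signal, with embryo signals of 6.16 to 71.5. The 9 oocyte markers on the array summed to 223 in donor cells and to between 69951 and 112574 in embryos.

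VIM was the least variable of the filament genes among embryos. Its signal was 402 and 376 in anti-DJ1 embryos of trials 1 and 2, 422 and 382 in IgG embryos, 348 in non-injected embryos, against 31965 in donor cells. The 5 embryo arrays lay close together, and the donor array stood 75.7 to 91.9 times above them. The fitted difference, donor cells minus the mean of the embryo groups, was 6.34 ± 0.17 (SE) on the log2 scale, an 81.2-fold higher signal (limma, adjusted p = 1.04e-11). RNA from a bulk sample gives a share of the total, so fewer cells of a type and less RNA per cell cannot be told apart, and here a fibroblast is set against whole embryos.

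KRT8, a keratin of simple epithelia and of the outer cells of later embryos, had 2 probe sets. The brighter, Ssc.15705.1.A1_at, gave 116 and 211 in anti-DJ1 embryos, 60.9 and 164 in IgG embryos, 74.6 in non-injected embryos, against 9907 in donor cells. The donor array was 47.1 to 163 times above the embryo arrays, and both trial 2 embryo arrays lay above all 3 of trial 1. The fitted rise in donor cells was 6.86 ± 0.26 (SE) on the log2 scale, or 116-fold (limma, adjusted p = 2.09e-10). The second probe set, Ssc.27318.1.S1_at, fell below the filter. Its signals were 18.1 and 24.998 in anti-DJ1 embryos, 2.78 and 22.9 in IgG embryos, 8.28 in non-injected embryos, against 140.1 in donor cells. None of the 5 embryo signals was above background, so only a bound can be given. The donor signal was at least 3.55-fold above the mean of the embryo arrays' background limits and 2.98 times the highest of them. Without the filter the fitted change was 3.48 ± 0.78 (SE) on the log2 scale (limma, adjusted p = 0.00265). Among 5 epithelial markers on the array, KRT19, another keratin of simple epithelia, stood at 3598 in the donor cells labelled fibroblasts and at 2.89 to 24.1 in embryos, EPCAM at 3128 against 3734 to 5574, and CDH1 at 749 against 3057 to 3694. Of the 4 markers tested by limma, 0 were higher in donor cells and 2 were lower, CDH1 (-2.19 on the log2 scale) and EPCAM (-0.77). Over all tested probe sets the shares were 36.5% higher and 36.4% lower. KRT19 was below the filter. The 5 markers together summed to 7650 in donor cells and to between 7550 and 9246 in embryos, and all 5 were above background in donor cells. Their part in the KRT8 difference was not tested.

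LMNB1, a B-type lamin of the nuclear envelope, ran the other way. Signals were 4958 and 2291 in anti-DJ1 embryos, 2883 and 2052 in IgG embryos, 6057 in non-injected embryos, against 664 in donor cells. Every embryo array lay above the donor array, by 3.09 to 9.12 times, and the trial 2 arrays were the lowest of the embryos. The fitted change in donor cells was -2.73 ± 0.17 (SE) on the log2 scale, so the signal was 6.62-fold lower there (limma, adjusted p = 2.03e-08).

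**Figure D1:**
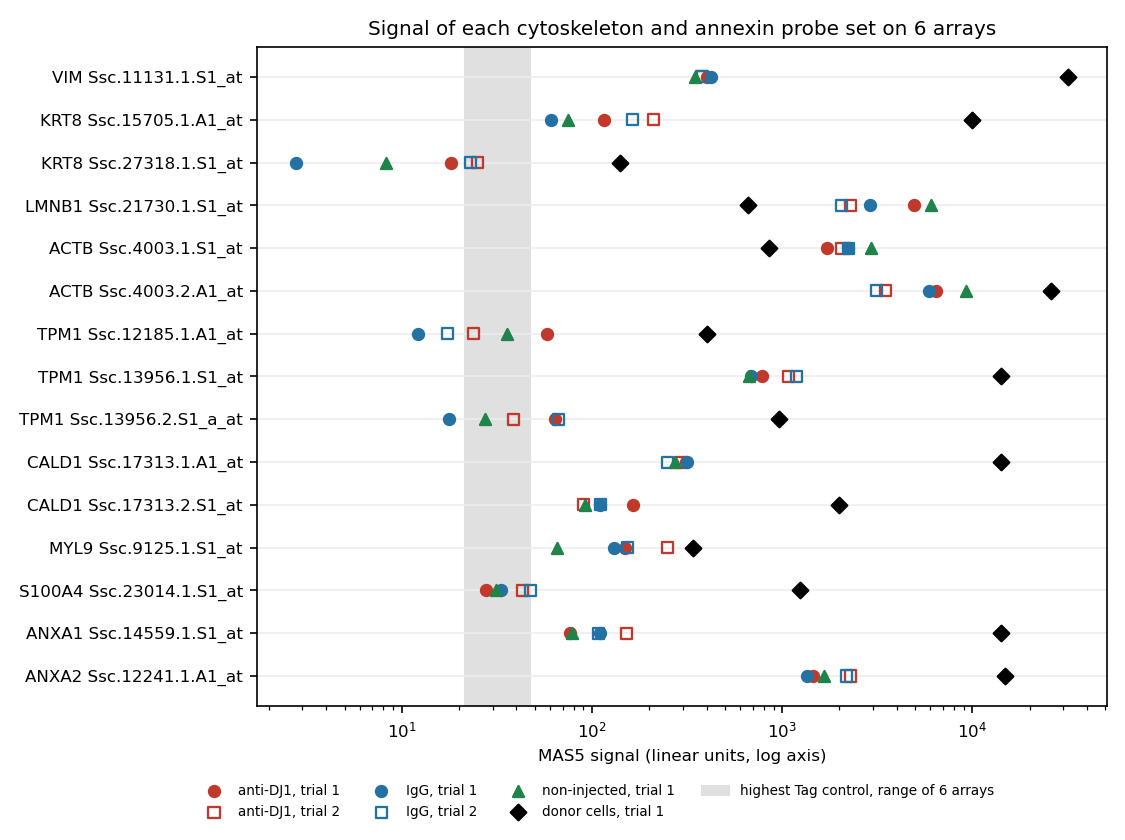
MAS5 signal (log scale) of each of the 15 probe sets on each of the 6 arrays, 1 point per array. The donor cell points stand above all embryo points for 13 probe sets and below them for LMNB1 and for ACTB Ssc.4003.1.S1_at.

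ACTB encodes β-actin, the main non-muscle actin, and its 2 probe sets gave opposite answers. For Ssc.4003.1.S1_at the signals were 1727 and 2058 in anti-DJ1 embryos, 2214 and 2238 in IgG embryos, 2924 in non-injected embryos, against 849 in donor cells. All 5 embryo arrays were above the donor array, by 2.03 to 3.44 times. For Ssc.4003.2.A1_at they were 6464 and 3473 in anti-DJ1 embryos, 5879.8 and 3124 in IgG embryos, 9295 in non-injected embryos, against 25746 in donor cells. Here the donor array was above all embryo arrays, by 2.77 to 8.24 times. In the fit the first probe set was lower in donor cells by a log2 change of -1.39 (95% interval -1.72 to -1.07), and the second was higher by 1.86 (1.61 to 2.12), with limma adjusted p-values of 2.84e-06 and 2.12e-08. The intervals do not overlap, and no single direction can be given for ACTB between donor cells and embryos from these probe sets.

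The array's actin control probe sets, annotated to the γ-actin gene ACTG1 and not to ACTB, read a 3′, a middle and a 5′ stretch. The 3′ set gave 12571 to 22222 in embryos and 25678 in donor cells, above all embryos. The middle set gave 327 to 1785 in embryos and 2954 in donor cells, and the 5′ set gave 33.4 to 279 in embryos and 182 in donor cells, inside the embryo range. The 3′ over 5′ ratio of these actin sets was 265, 45.0, 258, 68.4 and 665 on the anti-DJ1 trial 1, anti-DJ1 trial 2, IgG trial 1, IgG trial 2 and non-injected arrays, and 141 in donor cells. The donor value lay between the trial 2 and the trial 1 embryo values. For the elongation factor EF1A the same ratio was 24.2, 8.20, 23.9, 9.34 and 29.9 in embryos and 4.23 in donor cells, the lowest of the arrays. For GAPDH it was 17.6, 6.65, 7.46, 16.1 and 8.49 in embryos, with no order by trial, and 21.1 in donor cells, the highest of the arrays. The actin and EF1A ratios were lower in trial 2, the GAPDH ratio was lower there in anti-DJ1 and higher in IgG embryos, and donor cells took a different place in each. The part of these ratios in the difference between the ACTB probe sets was not tested.

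**Figure D2:**
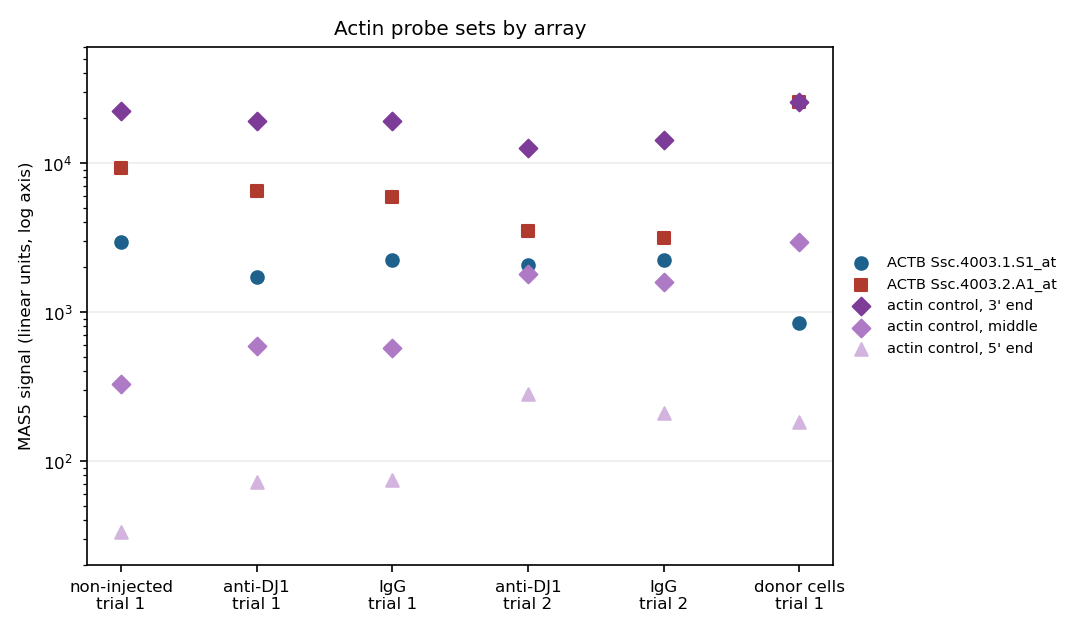
Signal (log scale) of both ACTB probe sets and the 3′, middle and 5′ actin control probe sets on each array, 1 point per probe set and array. The ACTB probe sets stand at 849 and 25746 in donor cells, where the second is nearly overlain by the 3′ actin control at 25678.

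TPM1, a tropomyosin that lies along the actin filament, had 3 probe sets, all higher in donor cells. For Ssc.13956.1.S1_at the signals were 778 and 1074 in anti-DJ1 embryos, 688 and 1182 in IgG embryos, 673 in non-injected embryos, against 14110.4 in donor cells. The donor array was 11.9 to 21.0 times above the embryos, and the trial 2 arrays were the highest embryos. This gave a log2 change of 4.30 ± 0.16 (SE), or 19.7-fold (limma, adjusted p = 1.84e-10). Ssc.13956.2.S1_a_at gave 63.7 and 38.5 in anti-DJ1 embryos, 17.7 and 66.9 in IgG embryos, 27.4 in non-injected embryos, against 965 in donor cells, and 2 of its 5 embryo signals were above background. Ssc.12185.1.A1_at gave 57.8 and 23.8, then 12.2 and 17.4, then 35.6 in the same order of embryo groups, and 402 in donor cells, with 1 of 5 embryo signals above background. Both dim probe sets had the donor array on top and embryo arrays in no shared order. Their log2 changes were 4.73 ± 0.60 and 3.54 ± 0.65 (SE), with limma adjusted p-values of 1.47e-05 and 0.000343, and both passed the filter only through the donor signal.

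CALD1, caldesmon, binds actin and tropomyosin and restrains myosin, and both of its probe sets were higher in donor cells. Ssc.17313.1.A1_at gave 311 and 293 in anti-DJ1 embryos, 316 and 250.5 in IgG embryos, 274 in non-injected embryos, against 14062 in donor cells. The embryo arrays were close to each other and the donor array was 44.4 to 56.1 times above them, a log2 change of 5.53 ± 0.19 (SE), or 46.2-fold (limma, adjusted p = 9.48e-11). Ssc.17313.2.S1_at gave 165 and 89.8, 110.1 and 111, and 91.9 in the embryo groups, and 1988 in donor cells. The donor array again stood clear of every embryo, by 12.1 to 22.1 times, and the log2 change was 4.01 ± 0.31 (SE; limma, adjusted p = 1.38e-07). The direction was shared by both CALD1 probe sets, while the size was not.

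MYL9, a regulatory light chain of smooth muscle and non-muscle myosin, had the smallest rise among the 12 probe sets that rose. It gave 149.5 and 249.9 in anti-DJ1 embryos, 131 and 153 in IgG embryos, 65.1 in non-injected embryos, against 339 in donor cells. The donor array was above all embryos but only 1.36 times above the highest of them, and the non-injected array was the lowest. The log2 change was 1.60 ± 0.30 (SE), or 3.03-fold (limma, adjusted p = 0.000395). Without the trial 1 anti-DJ1 array it was 1.32 and no longer passed (adjusted p = 0.0672). The 6 smooth muscle markers on the array summed to 3282 in donor cells and to between 472 and 887 in embryos. Of the 5 tested, 4 were called higher in donor cells and 1, DES, lower, against 36.5% and 36.4% of all tested probe sets. TAGLN, 1 of the 4, was above background on 2 of 5 embryo arrays and passed the filter only through its donor signal. DES stood at 22.5 in donor cells, not above background, and at 343 to 614 in embryos. ACTA2, TAGLN, DES and ACTG2 are also in the lists of other cytoskeleton genes described below. The part of these markers in the contractile genes was not tested.

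S100A4, a calcium-binding protein that acts on non-muscle myosin and is often used to mark fibroblasts, gave 27.5 and 42.9 in anti-DJ1 embryos, 33.1 and 47.4 in IgG embryos, 31.3 in non-injected embryos, against 1237 in donor cells. The embryo arrays were near background, with 3 of 5 above it, and the donor array was 26.1 to 44.9 times higher. The log2 change was 5.14 ± 0.46 (SE; limma, adjusted p = 5.45e-07), and this probe set too passed the filter only through the donor signal.

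ANXA1, an annexin known for its part in resolving inflammation, had the largest change of the 14 probe sets. It gave 76.9 and 152 in anti-DJ1 embryos, 111 and 108 in IgG embryos, 78.2 in non-injected embryos, against 14132 in donor cells. The donor array was 92.9 to 184 times above the embryos. The log2 change was 7.26 ± 0.30 (SE), or 154-fold (limma, adjusted p = 4.00e-10), and 99.7% of all tested changes lay below it. ANXA2, which pairs with S100A10 at the plasma membrane, gave 1456 and 2291 in anti-DJ1 embryos, 1346 and 2166 in IgG embryos, 1666 in non-injected embryos, against 14845 in donor cells. Donor cells were above every embryo array, by 6.48 to 11.03 times, and the trial 2 arrays were the highest embryos. Its log2 change was 3.32 ± 0.14 (SE), or 9.98-fold (limma, adjusted p = 4.09e-10).

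Between donor cells and embryos, then, 12 of the 14 tested probe sets were higher in donor cells and 2 were lower, so LMNB1 and one reading of ACTB did not follow the somatic side. Such calls were common on this array, where 36.5% of all tested probe sets were called higher and 36.4% lower, 72.9% in either direction. The members' median log2 change was 4.16, against 0.0246 over all tested probe sets. Because the members were chosen with earlier results of these data known, their contrasts with all probe sets describe them and test nothing. The donor signal lay above all 5 embryo signals for 13 of the 15 probe sets and below them for 2, while over all tested probe sets these shares were 39.4% and 40.9%. Of the 14 tested, 11 would have passed the filter on the embryo signals alone. With no filter, 13 of 15 were called higher and 2 lower, on a background of 30.4% and 22.6%. Under quantile normalization and a common 75th percentile the median change of all probe sets shifted to -0.42 and -0.59, and the probe sets called higher went from 5253 of 10501 called to 4223 of 10477 and 3911 of 10617. The direction of each member was kept under both.

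**Figure D3:**
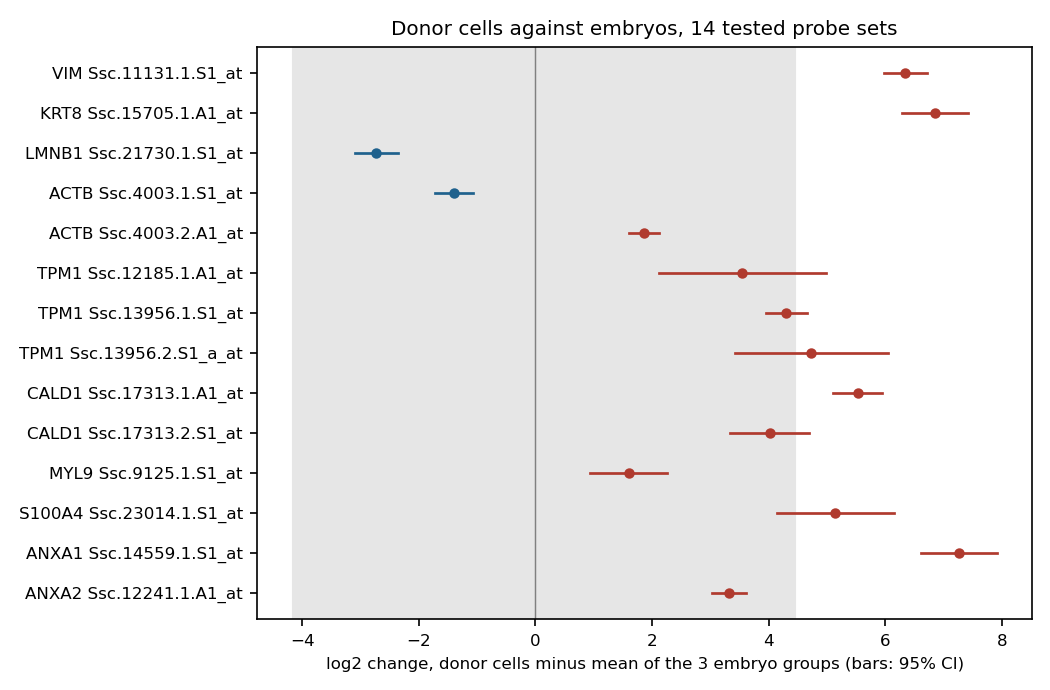
Log2 change, donor cells minus embryos, of the 14 tested probe sets with 95% intervals from the limma fit; the grey band spans the 5th to 95th percentile of all tested probe sets. The changes run from -2.73 for LMNB1 to 7.26 for ANXA1.

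Other cytoskeleton genes were read from 6 lists, each gene by its brightest probe set over all 6 arrays, the donor array included. A high donor signal raises that mean, so the choice can favour probe sets that are high in donor cells. Of 122 genes, 78 were on the array and 63 were tested, of which 42 were higher in donor cells and 11 lower, with a median log2 change of 1.78. These shares were 66.7% and 17.5%, against 36.5% and 36.4% of all tested probe sets, which were not chosen by brightness. The lists were also chosen with earlier results of these data known, so the contrast is only a description. Actin crosslinkers and membrane linkers had 13 of 14 higher and 1 lower. The largest rises were in moesin, MSN, which ties actin to the membrane (7.94), and integrin ITGB1 (6.91). MSN was above background on 2 of 5 embryo arrays and passed the filter only through its donor signal, so its size is uncertain. RDX, a relative of moesin, was lower (-0.60). Tropomyosins, myosins and their regulators had 8 of 14 higher and 4 lower, led by TPM3 (6.76) and the myosin light chain MYL6 (5.95). TPM3 was above background on 3 of 5 embryo arrays and MYL6 on 4 of 5, so their sizes are uncertain too. TAGLN, also among the 8, passed the filter only through its donor signal. CNN2 (-1.54) and the kinase ROCK1 (-1.26) were lowest. Actin isoforms and turnover genes had 14 of 24 higher and 4 lower. There the actin-monomer binder TMSB10 (6.88) and the capping subunit CAPZA2 (5.42) rose most, and the cardiac actin ACTC1 (-4.83) and DSTN, which severs filaments (-1.70), fell most. The ACTC1 signal in donor cells, 11.9, was not above background, so it was at least 11.8-fold lower there.

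The filament and lamina list was split, as the members were. KRT10 (4.24) and the filament protein SYNM (3.03) were higher in donor cells, each above background on 4 of 5 embryo arrays. The muscle filament gene DES (-3.97) and TMPO, a lamina-associated protein of the nuclear envelope (-2.74), were lower, so the list had 3 of 5 higher and 2 lower. The DES signal in donor cells, 22.5, was not above background either, and was at least 12.4-fold lower. Of the other annexins 2 of 2 tested were higher, ANXA5 (2.39) and ANXA11 (1.80). Of the other S100 genes 2 of 4 were higher, S100A10, the partner of ANXA2 (5.21), and S100A11 (3.70). The values in parentheses are log2 changes, and each passed limma's adjusted threshold of 0.05.

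**Figure D4:**
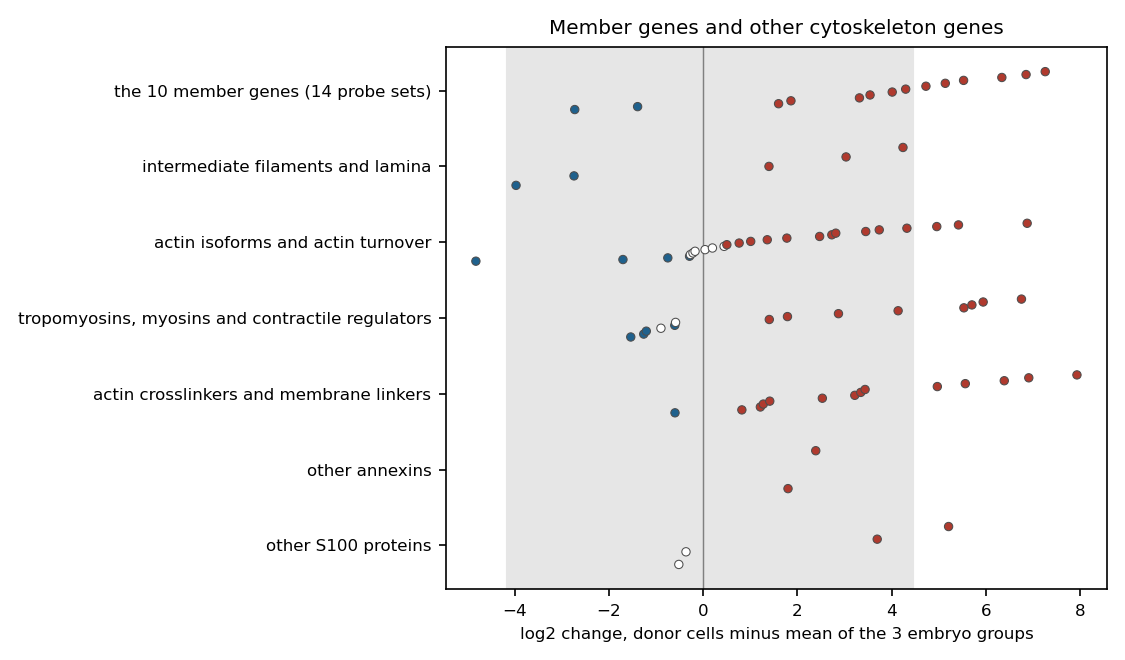
Log2 change, donor cells minus embryos, of the 14 tested member probe sets (top row) and of every tested gene of the 6 lists of other cytoskeleton genes. Each point is 1 member probe set or 1 list gene. Red is higher, blue lower and white not past the threshold, and the grey band is the 5th to 95th percentile of all tested probe sets. Among the 6 lists, crosslinkers and membrane linkers sit highest, with a median of 3.28. The members' median is 4.16.

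In the comparison the study was built on, anti-DJ1 against IgG embryos, no member passed the test. With limma 0 of the 14 probe sets passed, on a background of 0% (0 of 14399), and 2 of 14 had an unadjusted p under 0.05, against 839 of all tested. The members' median log2 difference was 0.12 and their lowest adjusted p was 0.815. Over the 14 probe sets the 95% intervals of the difference reached from -1.05 to 2.37, so in the noisiest of them even a large difference was not detectable with these arrays. VIM was the tightest case among the filaments, with differences, anti-DJ1 minus IgG, of -0.07 in trial 1 and -0.03 in trial 2.

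A few genes stood on the same side of IgG in both trials without passing the test. LMNB1 was higher with anti-DJ1 by 0.78 and 0.16, a fitted 0.47 ± 0.15 (SE; limma, adjusted p = 0.815). KRT8 Ssc.15705.1.A1_at was higher by 0.88 and 0.35, a fitted 0.62 ± 0.23 (SE; adjusted p = 0.835). MYL9 was higher by 0.19 and 0.69, and TPM1 Ssc.12185.1.A1_at, which is near background, by 1.89 and 0.37. In all, 6 of 14 probe sets were above IgG in both trials and 3 were below in both, against 24.6% and 26.8% of all tested probe sets. The 3 below in both were VIM, S100A4 (-0.23 and -0.13) and ACTB Ssc.4003.1.S1_at (-0.36 and -0.12), while the other ACTB probe set was above by 0.14 and 0.15. The remaining 5 went opposite ways in the 2 trials. Of the 63 other cytoskeleton genes, 0 passed.

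Against non-injected embryos the injected groups rest on 1 shared control array, and the 2 comparisons are given side by side for that reason. That array had a median hybridisation control signal of 6318, against 1260 to 3133 on the other arrays. It also had the lowest share of probe sets above background, 55.8% against 58.3% to 71.0%, and the highest actin 3′ over 5′ ratio, 665. The part of these array differences in both comparisons was not tested. In IgG embryos 2 of 14 probe sets were lower and 0 higher, on a background of 0.361% lower, 0.931% higher and 1.29% in either direction. They were LMNB1, at -0.91 ± 0.20 (SE; limma, adjusted p = 0.0489), and ACTB Ssc.4003.2.A1_at, at -0.66 ± 0.13 (SE; adjusted p = 0.0401). Both sit close to the threshold: without the replicate block for trial both adjusted p-values were 0.994, and with no pseudocount they were 0.0655 and 0.0502. Neither passed when any 1 of the injected arrays was left out, in fits without that block where 0 of all 14399 probe sets passed; the changes there ran from -1.56 to -1.07 for LMNB1 and from -1.57 to -0.66 for the ACTB probe set. ACTB Ssc.4003.1.S1_at stood at -0.46 (adjusted p = 0.186) and MYL9 at 0.83 (0.239).

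In anti-DJ1 embryos 0 of 14 passed with limma, on a background of 0.660% lower, 1.28% higher and 1.94% in either direction. An unadjusted limma p under 0.05 was found for 4 of 14, against 2662 of all 14399 tested. ACTB Ssc.4003.1.S1_at stood at -0.70 ± 0.17 (SE; adjusted p = 0.0614), ACTB Ssc.4003.2.A1_at at -0.52 ± 0.13 (0.0684), MYL9 at 1.27 ± 0.34 (0.0792) and LMNB1 at -0.44 ± 0.20 (0.252). Under a stricter filter that kept the upper 40%, 3 passed, both ACTB probe sets lower and MYL9 higher. In that setting 878 of all 9600 probe sets passed, or 9.15%. In signals, the non-injected array was above all 4 injected arrays for LMNB1 and both ACTB probe sets, 3 of 14, and below all 4 for VIM, MYL9 and TPM1 Ssc.13956.1.S1_at, also 3 of 14. Over all tested probe sets these shares were 19.9% and 26.3%. Of the other cytoskeleton genes 0 of 63 passed in IgG embryos and 1 in anti-DJ1 embryos, the myosin phosphatase subunit PPP1R12A, at 0.63 ± 0.14 (SE; adjusted p = 0.0458).

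**Figure D5:**
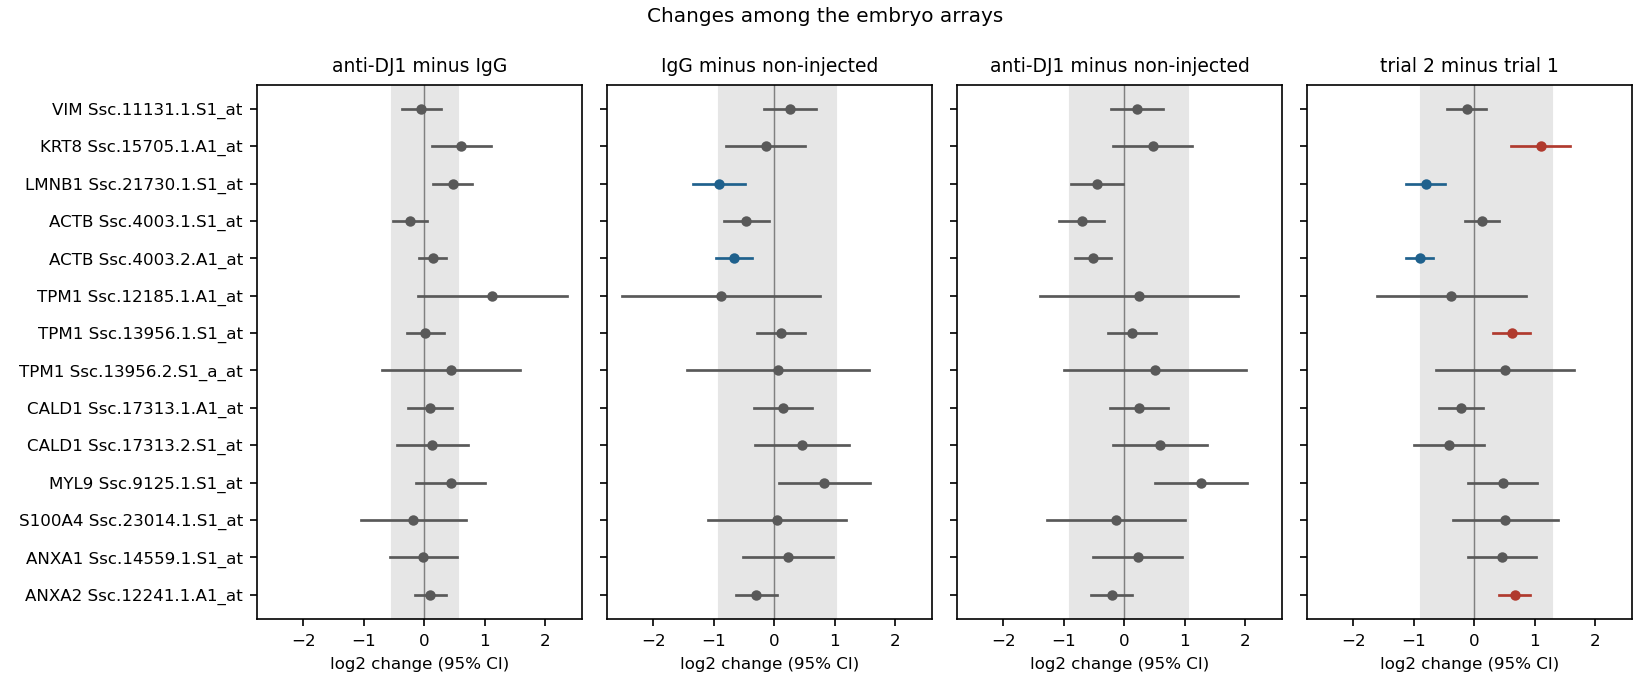
Log2 change of the 14 tested probe sets in the embryo comparisons, with 95% intervals from the limma fit; the grey band is the 5th to 95th percentile of all tested probe sets, and coloured points passed the adjusted threshold of 0.05 (red higher, blue lower). No point is coloured for anti-DJ1 against IgG, 2 are blue for IgG against non-injected embryos, and 5 are coloured for trial 2 against trial 1.

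Trial 2 was set against trial 1 over the injected embryos. By this measure 3 of 14 probe sets were higher and 2 lower, on a background of 19.0% higher, 13.4% lower and 32.3% in either direction. KRT8 Ssc.15705.1.A1_at was higher by 1.1 ± 0.23 (SE; limma, adjusted p = 0.00313), ANXA2 by 0.67 ± 0.12 (0.00128) and TPM1 Ssc.13956.1.S1_at by 0.62 ± 0.14 (0.00541). LMNB1 stood at -0.80 ± 0.15 (0.00175) and ACTB Ssc.4003.2.A1_at at -0.90 ± 0.10 (8.41e-05). With no mean-variance trend in the fit, none of these passed. At a common 75th percentile the median over all probe sets went from 0.14 to -0.09, the probe sets called higher went from 2730 of 4653 called to 1657 of 4861, and TPM1 Ssc.13956.1.S1_at no longer passed (0.37, adjusted p = 0.0529).

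The ACTB probe sets parted here as well. Ssc.4003.2.A1_at in trial 2 was at 0.537 of its trial 1 signal in anti-DJ1 embryos and at 0.531 in IgG embryos, while Ssc.4003.1.S1_at was at 1.19 and 1.01 (fitted log2 change 0.13 ± 0.13, SE; limma, adjusted p = 0.464; -0.11 at a common 75th percentile). The 3′ actin control was lower in trial 2, at 0.660 and 0.745 of trial 1, and the middle and 5′ controls were higher, at 3.00 and 2.79, and at 3.88 and 2.82. Added poly-A control transcripts, 36 probe sets, had median signals of 219 and 293 on the trial 2 arrays and of 3.60 to 6.71 on the other arrays, the donor array included. Their part in the trial differences was not tested. Of the 63 other cytoskeleton genes, 13 were higher and 13 lower in trial 2.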

How the data were processed

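RNA of 5 embryo pools and 1 culture of donor cells was hybridised to Affymetrix porcine arrays after 2 rounds of labelling. The deposited values were MAS5 intensity signals on a linear scale, per the submitters' processing notes; the version and annotation build were not given in the sources used here. Probe sets were named from the platform annotation: of 23999 without the 124 array controls, 10069 had 1 symbol, 198 several and 13732 none, and all 10 genes matched the RefSeq gene table.

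The intensities were transformed to log2(signal + 4.60), the 10th percentile of all signals, and the upper 60% of probe sets by mean were tested in limma 3.58.1 (R 4.3.3) with group and trial as terms over all 6 arrays, a mean-variance trend and Benjamini-Hochberg adjustment at 0.05. Changes are on that scale, which understates those of low signals. Trial was taken from the study's design text and matched the replicate number in the sample titles, which do not name a trial. It paired the arrays (same-trial deviations correlated at r = 0.589 across probe sets). The fit had 1 residual degree of freedom and 10.7 prior ones. It was also run on simulated data with independent errors drawn from its own variance estimates. That run cannot show how lone arrays, or errors shared by probe sets of an array, bear on the tests. Every probe set of the 10 genes was named. From each list of other genes, the 2 largest rises and falls past the threshold were named between donor cells and embryos. Members and lists were chosen with earlier results of these data known. Alternatives changed the pseudocount, filter, scaling, block, trend, reference and arrays.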

Additional observations from a re-analysis of the deposited data

Results flagged for a closer look

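For 5 probe sets the anti-DJ1 minus IgG difference, in log2 units, had opposite signs in the 2 trials. For TPM1 Ssc.13956.1.S1_at it was 0.18 in trial 1 and -0.14 in trial 2. For TPM1 Ssc.13956.2.S1_a_at it was 1.62 and -0.73. For CALD1 Ssc.17313.1.A1_at it was -0.02 and 0.22, and for CALD1 Ssc.17313.2.S1_at 0.56 and -0.29. For ANXA1 it was -0.50 and 0.48. With 1 array per group and trial, the difference between trials was not tested.

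Outside the main measurement, the median poly-A control signal was 219 on the anti-DJ1 array and 293 on the IgG array of trial 2, above that of the other 4 arrays.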

How the results depend on the processing

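Of 778 alternative values of the members, 709 kept direction and side of the threshold, 25 lost the call, 7 gained it and 37 changed sign. Between donor cells and embryos every member kept its call in each alternative that tested it, except MYL9 as given above. In some alternatives not every member passed the filter, and those below it were not tested there. IgG against non-injected embryos went from 2 calls to 0 with no pseudocount, no filter, quantile normalization, no replicate block, no trend and with any 1 injected array left out (0 to 0). Anti-DJ1 against non-injected embryos went from 0 to 2 calls with the 25th-percentile pseudocount, 3 in the upper 40% and 1 at a common 75th percentile. Trial 2 against trial 1 went from 5 to 0 with no trend, where over all probe sets 4653 calls also became 0. Over all probe sets, IgG against non-injected embryos ranged from 186 calls to 0 (no replicate block, no trend), 48 (no filter) and 726 (upper 40%), and anti-DJ1 against non-injected embryos from 279 to 0, 71 and 878. Anti-DJ1 against IgG had 43 calls in the upper 40% and at most 1 in the other settings, none of them a member.

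Without the replicate block, signs turned for KRT8 Ssc.15705.1.A1_at (0.41) and ANXA2 (0.0354) in IgG against non-injected embryos, and for S100A4 (0.12) and ANXA2 (0.13) in anti-DJ1 against non-injected embryos. At a common 75th percentile ACTB Ssc.4003.1.S1_at turned to -0.11 between trials. None of these was called.

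Fits with 1 array left out had no trial block, which would leave no residual degrees of freedom, so the trials were unbalanced in them and a lone array was assumed to vary like the others. Uncalled log2 differences then crossed 0. For anti-DJ1 against IgG the ranges were -0.12 to 0.022 for VIM, -0.0677 to 1.299 for KRT8, -0.0862 to 1.03 for LMNB1, -0.31 to 0.60 for ACTB Ssc.4003.2.A1_at, -0.37 to 0.41 and -0.40 to 1.29 for TPM1 Ssc.13956.1.S1_at and Ssc.13956.2.S1_a_at, -0.0679 to 0.26 and -0.29 to 0.56 for the CALD1 probe sets, -0.46 to 0.10 for S100A4, -0.48 to 0.46 for ANXA1 and -0.25 to 0.44 for ANXA2. For IgG against non-injected embryos they were -0.28 to 1.09 for KRT8, -0.52 to 1.16 for TPM1 Ssc.13956.2.S1_a_at, -0.13 to 0.21 for CALD1 Ssc.17313.1.A1_at and -0.31 to 0.38 for ANXA2. For anti-DJ1 against non-injected embryos they were -0.033 to 0.81 for CALD1 Ssc.17313.2.S1_at, -0.16 to 0.41 for S100A4, -0.022 to 0.92 for ANXA1 and -0.19 to 0.46 for ANXA2. Causes were not tested. Signals near background, as for S100A4 and the dim TPM1 and KRT8 probe sets in embryos, limit what could be seen there.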
